A study of Rattus norvegicus with 12 samples.

Results

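The response that 3 triazole fungicides have in common was described in rat liver, as the mean of the myclobutanil, propiconazole and triadimefon groups minus the control group. All 9 rats given a triazole and all 3 control rats entered the contrast, so that it covers 9 treated arrays of 12 in all. The animals were adult male Sprague-Dawley rats, 10 weeks of age and of no stated genotype, dosed by gavage every 24 h over 72 h. The daily dose was 300 mg/kg for both myclobutanil and propiconazole and 175 mg/kg for triadimefon, with 3 rats in each group. What the control rats received is not stated in the labels. RNA of each liver was hybridised to its own Affymetrix Rat Genome 230 2.0 array without pooling, so p-values measure the spread between animals. These are bulk livers of 1 sex, 1 age and 1 time point, and triadimefon was given at a lower dose than the other two.

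Triazole fungicides block the fungal form of Cyp51, the sterol demethylase, and the nitrogen of the triazole ring can also bind the heme of mammalian P450 enzymes. Beside that ring, propiconazole carries a dioxolane, triadimefon is a ketone with a phenoxy ether, and myclobutanil bears a butyl chain and a nitrile. In rodent liver, foreign compounds of this kind are sensed by the nuclear receptors CAR and PXR, which switch on P450 enzymes, the P450 reductase Por, conjugating enzymes and efflux transporters. AhR and NRF2 are further sensors, for planar aromatic ligands and for oxidants or electrophiles. The contrast asks which of these programs, and which others, differed from control when the 3 compounds are taken as a class.

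Values are the authors' deposited scores after quantile normalization between arrays. They behave like logarithms, but their base and centring are unknown, so every difference is in log-like units and no fold change is given. As a yardstick, the spike-in cre lay 2.74 such units above the spike-in bioB in the median array (range 2.42 to 3.39). Levels of different genes are not compared with each other, since each probe set has its own affinity. Myclobutanil rat 1 stood apart before any contrast was made: its array median was 0.157 against 0.0182 to 0.0552 in the other 11 arrays, and its median correlation with the others was 0.927 against 0.962 to 0.982. The counts of called genes in each list are therefore given with and without it. The 3'-minus-5' difference of the GAPDH control probe sets, a sign of RNA integrity, was 0.659 ± 0.252 in controls (SD, n = 3) and 0.549 ± 0.16 in treated rats (SD, n = 9; two-sided exact permutation p = 0.391). For actin it was 0.682 ± 0.202 in controls and 0.76 ± 0.162 in treated rats (exact permutation p = 0.495, where the smallest possible one-sided p is 0.00455). Hepatocyte markers were present in every rat, with a mean level over 18 members of 2.85 to 2.99 in control and 2.63 to 3.03 in treated rats. Albumin (Alb) held 1 identical normalized value in all groups, 4.03, because quantile normalization gives equal values to equal ranks. Pancreas markers had a mean level of 0.192 to 0.248 in control and 0.0753 to 0.229 in treated rats, and lymphocyte and neutrophil markers 0.1 to 0.146 and 0.0453 to 0.146.

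Against control, the triazole-treated livers showed higher levels of drug-metabolizing, antioxidant and some cell cycle genes, and lower levels of several transporters, glucose and methionine enzymes and endothelial receptors. Of 21729 probe sets tested, 647 were called by limma at an adjusted p under 0.05 (2.98%), 385 higher (1.77%) and 262 lower (1.21%). By gene, taking the brightest probe set of each, 421 of 11842 were called (3.56%), 252 higher (2.13%) and 169 lower (1.43%). The median size of a called gene was 0.33 for rises and -0.31 for falls, beside a median of -0.01 over all genes tested. Differences above 0.5 were seen for 47 called genes and below -0.5 for 27, above 1 for 7 and below -1 for 3. In 362 of the 421 called genes (86%) every treated rat lay on 1 side of every control rat, 215 above and 147 below, and over all tested genes this held for 1141 (9.64%), 549 above (4.64%) and 592 below (5%). By probe set it held for 1829 (8.42%), 863 above (3.97%) and 966 below (4.45%). The calls were made on these same values, so the 86% follows largely from the calls and is a description only. At unadjusted p under 0.05 there were 2662 genes (22.5%) and 4435 probe sets (20.4%). The 22.5% covers both directions and is the share to set beside the unadjusted counts of each gene list below.

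**Figure D1:**
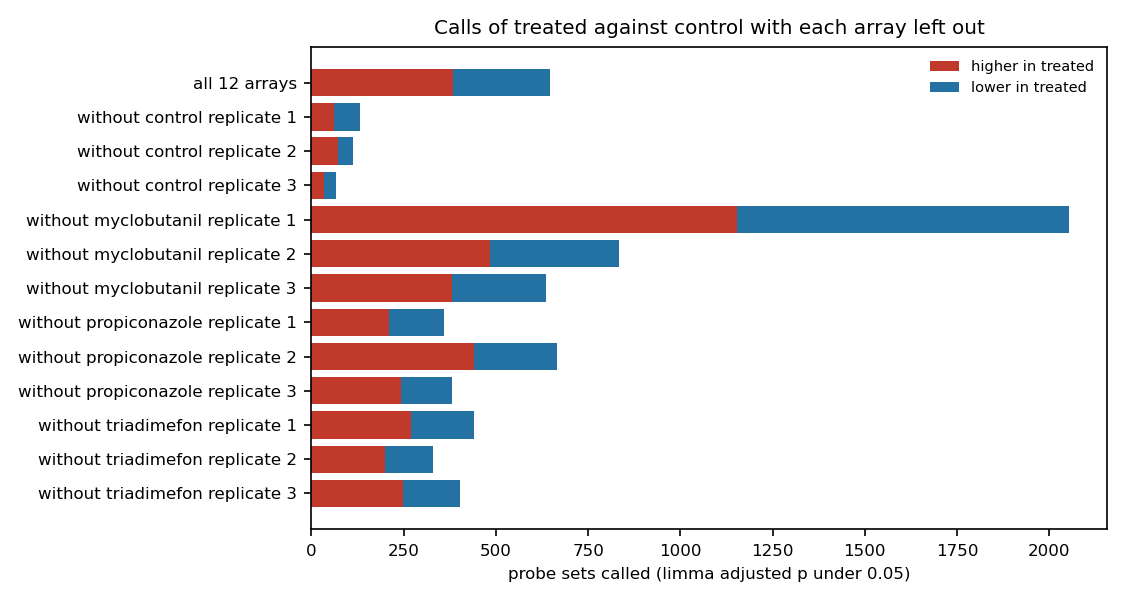
Number of probe sets called between the treated and control groups (horizontal axis; limma adjusted p under 0.05) in the fit on 12 arrays and in 12 fits that each leave out 1 array, split into higher (red) and lower (blue) in treated rats. The count of 647 fell to 133, 112 or 68 without control rat 1, 2 or 3 and rose to 2054 without myclobutanil rat 1.

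The number of calls depended on single rats, as the plot of calls with each array left out shows. It was 133, 112 and 68 without control rats 1, 2 and 3, 2054 without myclobutanil rat 1, 360 and 381 without propiconazole rats 1 and 3, and 329 and 402 without triadimefon rats 2 and 3. Every called probe set that was tested in those fits kept its sign. This was close to given, since each fit keeps all but 1 of the arrays that made the calls. Of the 63 called genes named here, 17 kept their call in all 12 fits and 46 lost it without control rat 3. The 17 were Gsta3, Ces2c, Coq10b, Aldh1a1, Ugt2b1, Por and Cyp3a23-3a1 among the rises, and Stac3, Slc6a6, Inhba, Lox, Slc13a4, Nr0b2, Olr59, Npas2, Abcc6 and Rprm among the falls. When the 9 treated rats were fitted as 1 group, which adds the spread between compounds to the error, 24 of the 63 lost their call (adjusted p 0.0509 to 0.334). These were Cyp1a1, Nqo1, Blvrb, Sqle, Racgap1, Mki67, Tyms, Wfdc21, Cxcl9, Dbp and Per3 among the rises, and Dhrs7l1, Ppp1r3b, Gnmt, Slc22a8, Insig2, Lrat, Pc, Fbp1, Rprm, Gbp2, Bmal1, Pdgfra and Tek among the falls.

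**Figure D2:**
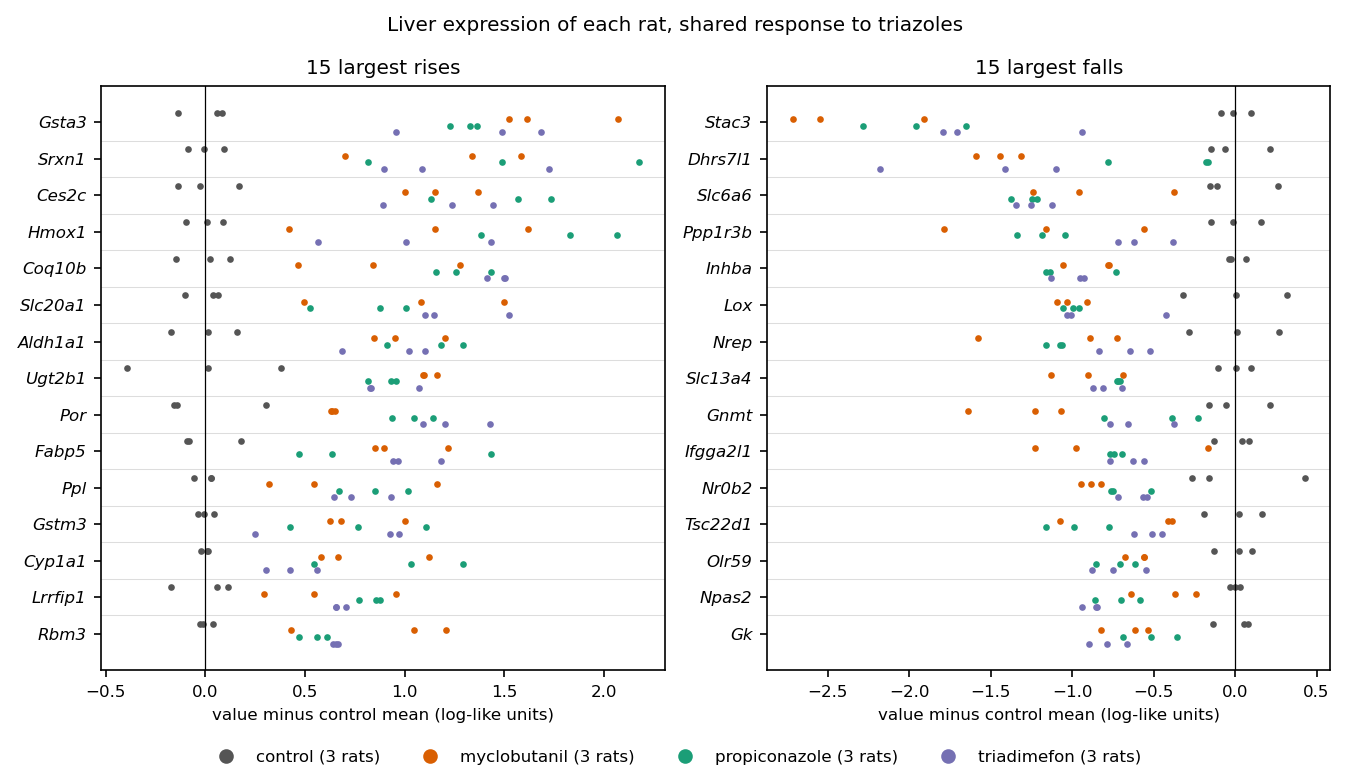
Value of each rat minus the control mean (horizontal axis, log-like units) for the 15 largest rises (left) and 15 largest falls (right) among called genes whose treated and control rats do not overlap. Each point is 1 rat, coloured by group. Gsta3 lies 1.47 and Stac3 -1.95 from the control mean on average over the compounds.

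Enzymes of drug metabolism, of phase I and of phase II, were among the 15 largest rises. These rises, and the 15 largest falls, were picked among called genes without overlap, so their lack of overlap follows from that choice. Gsta3, an alpha class glutathione S-transferase that couples electrophiles to glutathione, stood at 0.18, 0.154 and -0.0413 in the control rats and at 1.05 to 2.17 in the treated rats (median 1.59). No treated rat came near a control. It rose by 1.47 ± 0.146 (SE; 9 treated and 3 control rats; limma adjusted p = 0.00139), with 1.73 for myclobutanil, 1.30 for propiconazole and 1.38 for triadimefon. Its RefSeq promoter is shown because it had the largest rise of the called named genes. The capitals mark the core of an antioxidant response element, TGACNNNGC, whose first base lies 17 bases before the start of the gene (GRCr8, chr9:31154739-31154988, + strand, the 250 bases before the start).
Gsta3: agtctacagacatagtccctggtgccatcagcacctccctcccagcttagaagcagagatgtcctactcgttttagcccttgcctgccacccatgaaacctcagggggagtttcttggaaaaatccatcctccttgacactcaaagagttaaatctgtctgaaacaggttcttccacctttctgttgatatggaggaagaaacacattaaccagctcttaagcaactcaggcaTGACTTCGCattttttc

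Ces2c, a liver carboxylesterase that cleaves esters and amides, read 0.94, 0.631 and 0.742 in controls and 1.66 to 2.51 in treated rats (median 2.01). It rose by 1.28 ± 0.144 (adjusted p = 0.00219). Aldh1a1, which oxidizes retinal and other aldehydes, read 1.52, 1.19 and 1.37 in controls and 2.05 to 2.65 in treated rats (median 2.38), a rise of 1.02 ± 0.118 (adjusted p = 0.00252). Ugt2b1 attaches glucuronic acid to steroids and drugs. Its controls spread from 1.32 to 2.09 and its treated rats from 2.53 to 2.87 (median 2.67), a rise of 0.98 ± 0.126 (adjusted p = 0.00399). Gstm3, a mu class glutathione S-transferase, rose by 0.75 ± 0.163 from controls of 0.145, 0.0952 and 0.0625 (treated 0.35 to 1.20, adjusted p = 0.0354), and lost its call without any 1 control rat, propiconazole rat 3, or triadimefon rat 2 or 3 (adjusted p 0.0506 to 0.175). In the list of conjugating enzymes and hydrolases, 5 of 37 tested members rose (13.5%, against 2.13% of all genes) and 0 fell by limma, and 14 were higher and 5 lower at unadjusted p under 0.05. The median member lay at 0.06, and its sign turned with median centring (-0.0035) and with deposited values (-0.0052). Without myclobutanil rat 1 the counts were 6 higher and 3 lower. These families have near-identical members, so their probe sets may read more than 1 gene.

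Por, the reductase that feeds electrons to all microsomal P450 enzymes, read 1.11, 0.665 and 0.647 in controls and 1.44 to 2.24 in treated rats (median 1.86). The rise was 0.97 ± 0.104 (adjusted p = 0.00194), with 0.64 for myclobutanil, 1.04 for propiconazole and 1.24 for triadimefon. A second probe set of Por differed by 0.51 ± 0.201 with overlapping groups and was not called (adjusted p = 0.185). Its values were 0.05, 0.77 and 0.71 for myclobutanil, propiconazole and triadimefon. Cyp3a23-3a1, the PXR-induced P450 that oxidizes many drugs, read 2.93, 3.10 and 3.07 in controls and 3.29 to 3.48 in treated rats (median 3.43). The rise of 0.39 ± 0.0486 was called (adjusted p = 0.00356) and came to 0.41, 0.34 and 0.41 for myclobutanil, propiconazole and triadimefon. It was lost with median centring and with deposited values, and over 24 alternatives its adjusted p ran from 0.00103 to 0.726. These 2 were the members of the CAR and PXR list that rose, of 17 tested (11.8%, against 2.13% of all genes), and 0 fell by limma. At an unadjusted p under 0.05, 5 were higher and 5 lower, and the median lay at -0.02, or -0.185 with median centring and -0.187 with deposited values. Without myclobutanil rat 1, 4 rose and 2 fell. The listed Cyp2b1, Cyp2b2, Cyp2b15, Cyp3a62 and Cyp3a73 had no probe set assigned to them alone and were not tested. The counts therefore leave out these P450 genes.

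The promoter of Cyp3a23-3a1 is shown because nuclear receptors such as PXR bind paired copies of a short site. Capitals mark 2 copies of the hexamer AGTTCA, read on its other strand as TGAACT, with 3 bases between them, 144 to 130 bases before the start (GRCr8, chr12:14398890-14398989, - strand). This spacing was looked for after single matches had been seen.
Cyp3a23-3a1: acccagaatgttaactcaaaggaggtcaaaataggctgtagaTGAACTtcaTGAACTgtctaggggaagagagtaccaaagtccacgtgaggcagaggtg
Of 27457 promoters in the RefSeq table, 2 hold this repeat on either strand (0.00728%), those of Cyp3a23-3a1 and Cyp3a2. Cyp3a2 was also tested and was not called. The same repeat with a gap of 4 bases was in 0 of 204 promoters of risen genes, 0 of 142 of fallen genes and 4 of all (0.0146%). The hexamer alone, which these repeats contain, was in 10.8% of promoters of risen genes, 7.04% of fallen, 10.1% of tested and 14.4% of all. The antioxidant core TGACNNNGC was in 11.8%, 15.5%, 14.7% and 12.2% in the same order, and the dioxin response core GCGTG in 55.9%, 43%, 47.8% and 30.9%. The sterol element TCACNCCAC was in 0.98%, 0.704%, 1.05% and 1.15%. The shares are descriptions of 300-base windows, and both strands were searched for each motif.

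Some of the genes that answer to AhR and NRF2 also rose. Cyp1a1, the P450 that AhR induces most sharply, read 0.0283, 0.0625 and 0.0556 in controls and lay at 0.354 to 1.34 in treated rats (median 0.626). Its rise was 0.72 ± 0.143 (adjusted p = 0.0251), with 0.79, 0.96 and 0.43 for myclobutanil, propiconazole and triadimefon. Cyp1a2, its constitutive liver relative, read 2.85, 3.08 and 2.94 in controls and 2.22 to 3.08 in treated rats and was not called (-0.25 ± 0.112, adjusted p = 0.243). Nqo1, a quinone reductase that both sensors control, read 1.47, 1.60 and 1.59 in controls and 1.61 to 2.31 in treated rats, a rise of 0.46 ± 0.082 (adjusted p = 0.0176). Of 6 AhR targets tested, Cyp1a1 and Nqo1 rose (33.3%, against 2.13% of all genes) and 0 fell by limma. At unadjusted p under 0.05, 2 were higher and 1 lower, where 22.5% of all genes passed in either direction. The counts were the same without myclobutanil rat 1, and 0 AhR targets were called by limma with the treated rats as 1 group.

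Hmox1, the oxygenase that opens heme, read 0.862, 0.946 and 0.76 in controls and 1.28 to 2.92 in treated rats (median 2.24), a rise of 1.27 ± 0.237 (adjusted p = 0.0196). Srxn1, which repairs oxidized peroxiredoxins, read 0.74, 0.559 and 0.64 in controls and 1.34 to 2.82 in treated rats (median 1.98), a rise of 1.31 ± 0.266 (adjusted p = 0.0272). Both genes had wide treated groups that did not overlap the controls. Blvrb, which reduces biliverdin further along heme breakdown, rose by 0.34 ± 0.0673 from 0.971, 0.929 and 1.03 (treated 1.08 to 1.52, adjusted p = 0.0251). Trib3 read 0.092, 0.356 and 0.374 in controls and 0.361 to 1.70 in treated rats, and its difference of 0.80 ± 0.241 was not called (adjusted p = 0.0969). Of 22 NRF2 targets tested, 3 rose (13.6%, against 2.13% of all genes) and 0 fell by limma. Nqo1 is counted here as well as among the AhR targets. At unadjusted p under 0.05, 11 were higher and 1 lower, where 22.5% of all genes passed in either direction. The median of the NRF2 list was 0.27 and, without myclobutanil rat 1, 3 rose and 0 fell. The mean level of the list was 1.20 to 1.29 in control and 1.32 to 1.84 in treated rats. Of 14 heme genes, 2 rose (14.3%, against 2.13% of all genes) and 0 fell by limma. At unadjusted p under 0.05, 3 were higher and 1 lower. Without myclobutanil rat 1, 3 heme genes rose and 1 fell by limma. Without control rat 1, 2 or 3 in turn, no AhR, NRF2 or heme gene was called: the adjusted p of Cyp1a1 was then 0.0992 to 0.127, of Nqo1 0.0704 to 0.0959 and of Hmox1 0.0826 to 0.119. For Srxn1, also without propiconazole rat 1, it was 0.0516 to 0.138, and for Blvrb, also without triadimefon rat 2, 0.0522 to 0.117. Nqo1 also lost its call with median centring and deposited values (0.0112 to 0.0959 over 24 alternatives).

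Transporters moved in both directions. Abcc3, which exports glucuronides across the basolateral membrane, read 0.0412, -0.0188 and -0.0269 in controls and 0.27 to 0.756 in treated rats (median 0.535), a rise of 0.51 ± 0.0874 (adjusted p = 0.0143). Abcc6, another export pump of the hepatocyte, fell by 0.49 ± 0.065 from 1.95, 1.88 and 1.89 to between 1.24 and 1.55 (adjusted p = 0.00419). Slc22a8, an organic anion uptake carrier, read 2.02, 1.80 and 1.67 in controls and 0.368 to 1.69 in treated rats, with a slight overlap, and fell by 0.81 ± 0.175 (adjusted p = 0.0345). Abcb1a, a P-glycoprotein gene, read -0.128, -0.0897 and -0.176 in controls and -0.0544 to 0.835 in treated rats; its difference of 0.42 ± 0.13 was not called (adjusted p = 0.104, and 0.0282 without myclobutanil rat 1). A second probe set of Abcb1a was called, with a rise of 0.585 (adjusted p = 0.0226) and every treated rat above every control, and lost its call without any 1 control rat (0.08 to 0.152) and with the replicate block. Of 18 drug transporters tested, 1 rose (5.56%, against 2.13% of all genes) and 2 fell (11.1%, against 1.43%), with a median of -0.06. Without myclobutanil rat 1, 3 rose and 5 fell. Abcc3 lost its call without any 1 control rat (adjusted p 0.0617 to 0.093) and Slc22a8 also without propiconazole rat 1 or 3 (0.0611 to 0.147).

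Outside drug metabolism, Slc13a4, a sulfate carrier, fell by 0.81 ± 0.0825 from 1.59, 1.49 and 1.39 to between 0.354 and 0.80 (adjusted p = 0.00168). Slc20a1, a phosphate carrier, read 0.655, 0.798 and 0.821 in controls and 1.25 to 2.28 in treated rats (median 1.84), a rise of 1.03 ± 0.179 (adjusted p = 0.0156). Coq10b, a mitochondrial protein that binds coenzyme Q, rose by 1.20 ± 0.135 from 0.674, 0.403 and 0.575 (treated 1.01 to 2.05, median 1.83, adjusted p = 0.00219). Its compound values were 0.86, 1.28 and 1.47 for myclobutanil, propiconazole and triadimefon. Fabp5, a fatty acid binding protein, rose by 0.95 ± 0.172 (controls 1.22, 0.961 and 0.954, treated 1.51 to 2.48, adjusted p = 0.0179). Ppl, a desmosome linker, rose by 0.76 ± 0.141, Lrrfip1 by 0.70 ± 0.111 and Rbm3, an RNA-binding protein known from cold exposure, by 0.70 ± 0.124 (adjusted p 0.0196, 0.0104 and 0.0168). The calls of Slc20a1, Fabp5, Ppl and Rbm3 were lost without any 1 control rat (adjusted p 0.0704 to 0.0865, 0.0557 to 0.11, 0.082 to 0.119 and 0.0738 to 0.0983) and that of Lrrfip1 without control rat 3 (0.0849).

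**Figure D3:**
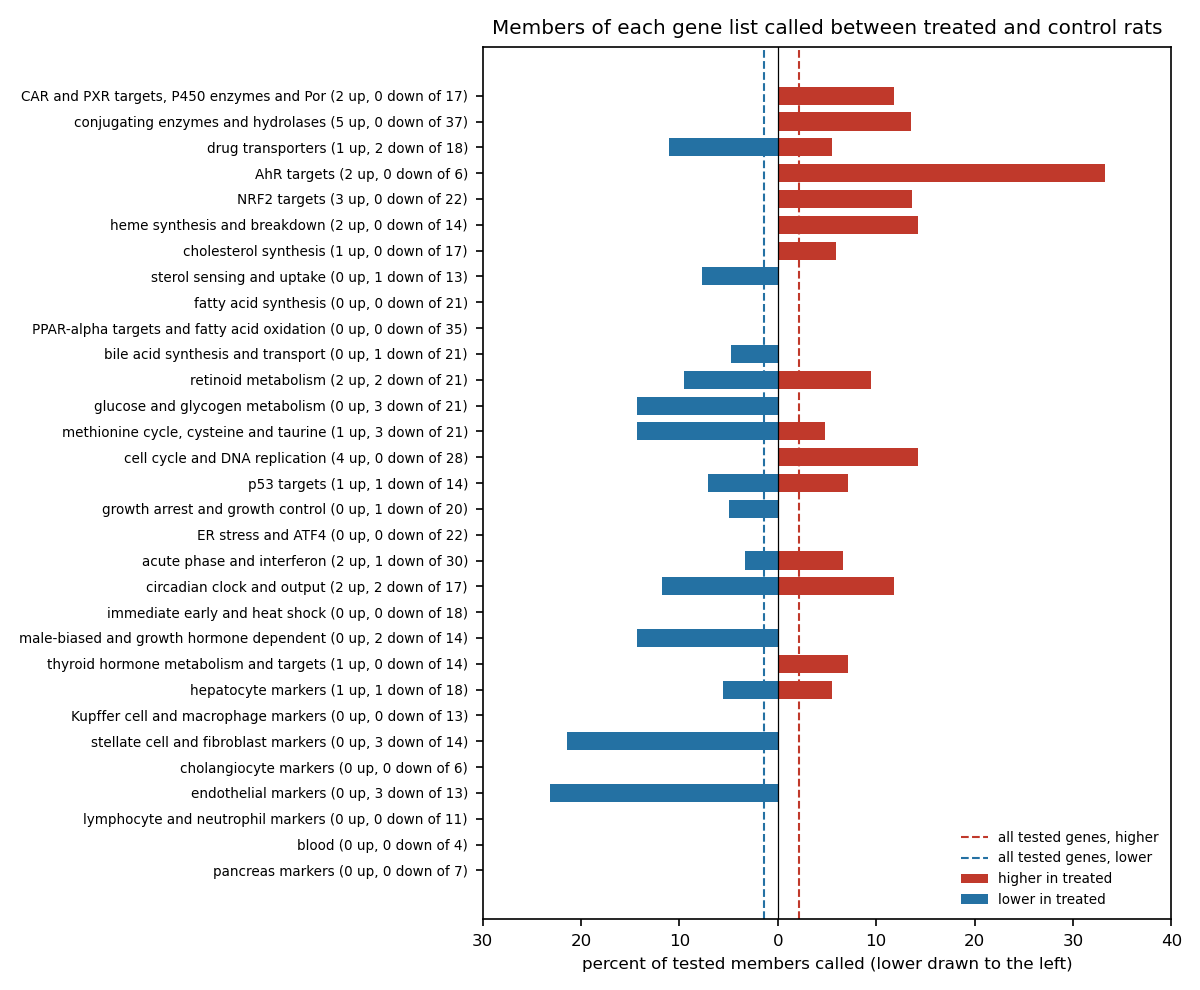
Percent of the tested members of each gene list called higher (red, to the right) or lower (blue, to the left) in treated than in control rats by limma at an adjusted p under 0.05, with the counts beside each name. Dashed lines give the share over all genes tested, 2.13% higher and 1.43% lower. AhR targets reach 33.3% higher on 6 genes, and endothelial markers 23.1% lower on 13.

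The sterol pathway, home of the mammalian Cyp51, showed 1 rise and 1 fall. Sqle, squalene epoxidase, read 0.415, 0.615 and 0.121 in controls and 0.483 to 1.73 in treated rats (median 1.21), a rise of 0.73 ± 0.154 (adjusted p = 0.0311) with overlapping groups. Insig2, which holds the sterol sensor complex in the endoplasmic reticulum, fell by 0.78 ± 0.11 from 2.49, 2.63 and 2.64 (treated 1.43 to 2.50, median 1.66, adjusted p = 0.00596). Cyp51 itself read 2.03, 2.50 and 2.17 in controls and 1.89 to 2.98 in treated rats. It was not called (0.29 ± 0.124, adjusted p = 0.221), with 0.63 for myclobutanil, -0.15 for propiconazole and 0.39 for triadimefon, so the class mean covers values of both signs. Of 17 cholesterol synthesis genes tested, 1 rose (5.88%, against 2.13% of all genes) and 0 fell by limma. At unadjusted p under 0.05, 5 were higher and 1 lower. The median was 0.20, and 2 rose and 0 fell without myclobutanil rat 1. Of 13 sterol sensing and uptake genes, 1 fell (7.69%, against 1.43% of all genes), also without that rat. Their median was 0.0049 (0.0188 with median centring). Sqle lost its call without any 1 control rat, propiconazole rat 3 or triadimefon rat 2 (adjusted p 0.0554 to 0.195), and Insig2 without control rat 3 (0.0636). Both also lost it with the treated rats as 1 group.

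Fatty acid genes gave no call in the fit of all 12 arrays with equal weights and a variance trend over the 21729 probe sets. Of 21 fatty acid synthesis genes, 0 rose and 0 fell by limma, 1 was higher and 3 lower at unadjusted p under 0.05, and the smallest p values were those of Agpat2, an acyltransferase of lipid assembly (-0.23 ± 0.0578, adjusted p = 0.0589), and Mlxipl, a carbohydrate-sensing factor (-0.15 ± 0.0592, adjusted p = 0.189). Of 35 PPAR-alpha targets and fatty acid oxidation genes, 0 were called by limma, 5 were higher and 2 lower at unadjusted p under 0.05, and the median was -0.000788 (-0.0413 with median centring). Eci1 and Cpt2, a beta-oxidation isomerase and the inner carnitine transferase, differed by 0.38 ± 0.0925 and 0.33 ± 0.094 (adjusted p = 0.051 and 0.0796). Without myclobutanil rat 1, 1 synthesis gene, Agpat2 (adjusted p = 0.035), was called lower and 4 genes of the oxidation list higher, Eci1 (0.0267) and Cpt2 (0.0265) among them. Array weights gave the same counts, and Agpat2 and Eci1 were also called without a variance trend (0.0301 and 0.038) and with the 50% filter on dim probe sets (0.0488 and 0.0406). Cyp4a1, the omega-hydroxylase used as a mark of PPAR-alpha activation, read 2.11, 2.31 and 2.30 in controls and 1.73 to 2.17 in treated rats, a difference of -0.27 ± 0.0819 that was not called (adjusted p = 0.101).

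Retinoid genes moved on both sides of retinoic acid. Cyp26a1, which clears retinoic acid and is itself a target of the retinoic acid receptors, read -0.176, -0.15 and -0.0573 in controls and 0.192 to 0.681 in treated rats (median 0.352). It rose by 0.53 ± 0.0983 (adjusted p = 0.0196), with 0.53, 0.48 and 0.58 for the 3 compounds. Aldh1a1, given above, was the other rise. Lrat, which stores retinol as esters, fell by 0.30 ± 0.0564 from 0.552, 0.691 and 0.719 (treated 0.171 to 0.529, adjusted p = 0.0196). Rara, a retinoic acid receptor, fell by 0.20 ± 0.0456 from 0.69, 0.613 and 0.633 (treated 0.278 to 0.499, adjusted p = 0.042). These 4 were the calls among 21 retinoid genes tested (9.52% each way, against 2.13% higher and 1.43% lower of all genes). The median of the list was -0.06. Without myclobutanil rat 1, 2 rose and 4 fell. The calls of Cyp26a1 and Lrat were lost without control rat 2 or 3, that of Cyp26a1 also without control rat 1 (adjusted p 0.0908 to 0.0985 and 0.0969 to 0.127). Rara lost its call without any 1 control, propiconazole or triadimefon rat (0.0586 to 0.167), and with median centring (0.00997 to 0.167 over 24 alternatives). The Cyp26a1 promoter is shown because it holds the repeat with 5 bases between the hexamers, a spacing that retinoic acid receptors are known to bind (GRCr8, chr1:244883689-244883788, + strand; capitals mark the hexamers, 92 to 76 bases before the start). This spacing too was looked for after single matches had been seen.
Cyp26a1: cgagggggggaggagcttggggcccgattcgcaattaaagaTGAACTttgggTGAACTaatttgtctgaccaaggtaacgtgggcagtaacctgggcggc
Of 27457 promoters, 3 hold this repeat (0.0109%), and of the 9811 tested genes with a promoter, 1 does.

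Several genes of glucose and methionine metabolism fell. Ppp1r3b, the subunit that brings protein phosphatase to glycogen, read 2.14, 1.97 and 1.84 in controls and 0.194 to 1.60 in treated rats (median 0.938), and fell by 0.98 ± 0.194 (adjusted p = 0.0251). Pc and Fbp1, pyruvate carboxylase and fructose bisphosphatase of gluconeogenesis, fell by 0.45 ± 0.108 and 0.28 ± 0.0561 (adjusted p = 0.0495 and 0.0263). Fbp1 was tight in controls at 3.01, 3.00 and 2.98 and lay at 2.54 to 2.90 in treated rats. Gk, glycerol kinase, fell by 0.65 ± 0.0916 from 2.23, 2.42 and 2.45 (treated 1.47 to 2.01, adjusted p = 0.00596). Of 21 glucose and glycogen genes, 3 fell (14.3%, against 1.43% of all genes) and 0 rose by limma. At unadjusted p under 0.05, 2 were higher and 7 lower. The median was -0.08 (-0.205 with median centring and -0.207 with deposited values). Without myclobutanil rat 1 there were 5 falls and 0 rises. None of these 3 was called without any 1 control rat, or without triadimefon rat 2 (adjusted p of Ppp1r3b 0.0513 to 0.119). The calls of Pc and Fbp1 were also lost without other rats (0.0641 to 0.189 and 0.0544 to 0.121) and with median centring, that of Fbp1 with deposited values too, and that of Gk without control rat 3 (0.0636).

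Gnmt, the methyltransferase that consumes the methyl donor S-adenosylmethionine, read 3.03, 2.77 and 2.66 in controls and 1.18 to 2.60 in treated rats (median 2.05), and fell by 0.80 ± 0.149 (adjusted p = 0.0205). Slc6a6, the taurine carrier, read 1.36, 1.77 and 1.40 in controls and 0.133 to 1.13 in treated rats (median 0.268), and fell by 1.13 ± 0.148 (adjusted p = 0.00419). A second probe set of Slc6a6 also fell, by 0.757. Cth, which makes cysteine, fell by 0.40 ± 0.0764 (controls 2.93, 2.99 and 2.77, treated 2.38 to 2.66, adjusted p = 0.0226). Mat2a, the extrahepatic form of the enzyme that makes S-adenosylmethionine, rose by 0.54 ± 0.122 from 0.726, 0.754 and 0.747 (treated 1.03 to 1.66, adjusted p = 0.0396). Of 21 genes of this list, 1 rose (4.76%, against 2.13% of all genes) and 3 fell (14.3%, against 1.43%). The counts were 2 and 4 without myclobutanil rat 1. The median was -0.15 (-0.238 with median centring and -0.24 with deposited values). Without any 1 control rat Slc6a6 alone of these 4 was called: the adjusted p of Gnmt was then 0.0845 to 0.111 and of Cth 0.0709 to 0.115, and that of Mat2a, also without propiconazole rat 1 or any 1 triadimefon rat, 0.0622 to 0.175. Cth also lost its call with deposited values (0.0072 to 0.115 over 24 alternatives).

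Of the bile acid genes, Nr0b2, the small heterodimer partner that represses bile acid synthesis, fell by 0.72 ± 0.122 from 1.10, 1.69 and 0.996 (treated 0.319 to 0.747, median 0.514, adjusted p = 0.0139). Cyp7a1, the rate-limiting enzyme of that synthesis, spread from 0.216 to 3.16 in treated rats around controls of 1.41, 1.90 and 1.46, and its mean difference of 0.21 ± 0.385 was not called (adjusted p = 0.809). Among 21 genes of the list, 1 fell (4.76%, against 1.43% of all genes) and 0 rose by limma. At unadjusted p under 0.05, 0 were higher and 8 lower. The median was -0.14 (-0.249 with median centring and -0.251 with deposited values). The counts of calls were the same without myclobutanil rat 1.

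Stac3, better known as a partner of the muscle calcium channel, had the deepest fall by this rule. It read 2.68, 2.50 and 2.57 in controls and -0.133 to 1.64 in treated rats (median 0.672). It fell by 1.95 ± 0.205 (adjusted p = 0.00194), and the compounds gave -2.39, -1.97 and -1.48. Dhrs7l1, a short-chain dehydrogenase, read 2.10, 2.46 and 2.18 in controls and 0.0634 to 2.08 in treated rats (median 0.933), and fell by 1.13 ± 0.201 (adjusted p = 0.0168). Its compound values were uneven, at -1.45, -0.38 and -1.57, and its call was lost without any 1 control rat (0.0651 to 0.093) and with the treated rats as 1 group. Both genes stand in the list of male-biased and growth hormone dependent genes. They were its 2 falls of 14 tested (14.3%, against 1.43% of all genes), with 0 rises by limma. The list was written with earlier results of these data known, so this share is a description only. At unadjusted p under 0.05, 1 of the 14 was higher and 7 lower. The median of the list was -0.24 (-0.458 with median centring and -0.46 with deposited values). The calls became 1 rise and 4 falls without myclobutanil rat 1. The list's mean level was 2.76 to 2.82 in control and 2.05 to 2.65 in treated rats. Cyp2c11, the main male P450 of rat liver, read 3.5, 3.52 and 3.55 in controls and 2.39 to 3.64 in treated rats, and was not called (-0.16 ± 0.188, adjusted p = 0.679).

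Clock genes changed in both directions. Npas2, an activator that pairs with Bmal1, read 0.668, 0.639 and 0.698 in controls and -0.269 to 0.426 in treated rats, and fell by 0.67 ± 0.0745 (adjusted p = 0.00219), with -0.42 for myclobutanil, -0.72 for propiconazole and -0.88 for triadimefon. Bmal1 fell by 0.39 ± 0.0768 (adjusted p = 0.0251; -0.12, -0.37 and -0.68). Dbp, an output factor driven by the activators, rose by 0.65 ± 0.132 from -0.0219, 0.0688 and 0.138 (treated 0.0182 to 1.43, adjusted p = 0.0276; 0.02, 0.72 and 1.21), and Per3, a repressor, by 0.13 ± 0.03 (adjusted p = 0.0409; 0.00, 0.10 and 0.30). In Bmal1, Dbp and Per3 the myclobutanil value was the one nearest to 0 and the groups overlapped. Of 17 clock genes, 2 rose (11.8%, against 2.13% of all genes) and 2 fell (11.8%, against 1.43%). The counts were the same without myclobutanil rat 1. The calls of Bmal1 and Dbp were lost without any 1 control rat or triadimefon rat 2 (adjusted p 0.052 to 0.131 and 0.0528 to 0.123), and that of Per3 without 8 of the 12 rats and with deposited values (0.0504 to 0.156 without 1 rat).

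Genes of cell division rose by small amounts from low levels. Racgap1, which acts in cytokinesis, rose by 0.22 ± 0.0507, Mki67, a mark of dividing cells, by 0.18 ± 0.0402, the replicative helicase subunit Mcm4 by 0.17 ± 0.0348 and thymidylate synthase Tyms by 0.13 ± 0.0288 (adjusted p 0.0462, 0.0393, 0.03 and 0.0394). Mki67 read -0.144, -0.106 and -0.0711 in controls and -0.0584 to 0.26 in treated rats. Of 28 cell cycle and replication genes tested, 4 rose (14.3%, against 2.13% of all genes) and 0 fell by limma. At unadjusted p under 0.05, 15 were higher and 0 lower, where 22.5% of all genes passed in either direction. The median was 0.12. The list's mean level ran from 0.0869 to 0.141 in controls and from 0.153 to 0.47 in treated rats, without overlap. Without myclobutanil rat 1, 9 genes were called higher; without any 1 control rat, propiconazole rat 3, or triadimefon rat 2 or 3 the count was 0. Over the single rats whose loss ended the call, the adjusted p was 0.0503 to 0.175 for Racgap1, 0.0522 to 0.156 for Mki67, 0.051 to 0.162 for Mcm4 and 0.0541 to 0.153 for Tyms. Racgap1, Mki67 and Tyms also lost their calls with deposited values and with no filter on dim probe sets. Racgap1 and Tyms lost them too without a variance trend and with the replicate block. Over 23 alternatives the calls of Racgap1, Mki67 and Tyms were lost in 16, 13 and 17. Their control means were low, at -0.188, -0.107 and -0.114. The listed Ccna2, Ccne2, Mcm6, Bub1, Kif11 and Hmmr were left out as dim and not tested.

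Among growth control genes, Inhba, the activin A subunit that restrains hepatocyte growth, read 1.14, 1.04 and 1.03 in controls and -0.0895 to 0.34 in treated rats (median 0.118). It fell by 0.96 ± 0.0924 (adjusted p = 0.00139), with -0.871, -1.01 and -1.002 for the 3 compounds, and a second probe set fell by 0.292. It was the 1 fall of 20 tested members (5%, against 1.43% of all genes), with 0 rises by limma. At unadjusted p under 0.05, 4 members were higher and 5 lower. Without myclobutanil rat 1 there were 2 falls and 1 rise by limma. Of 14 p53 targets, Ccng1, an atypical cyclin, rose by 0.50 ± 0.0739 (controls 0.511, 0.738 and 0.481, treated 0.804 to 1.33, adjusted p = 0.00839) and Rprm, a p53-induced cell cycle inhibitor, fell by 0.35 ± 0.0344 (controls 0.277, 0.25 and 0.19, treated -0.345 to 0.163, adjusted p = 0.00139). These were 1 rise and 1 fall (7.14% each, against 2.13% and 1.43% of all genes), also without myclobutanil rat 1. Ccng1 lost its call without control rat 1 or 3 (0.0546 to 0.0758), and Rprm lost it with the treated rats as 1 group (0.000485 to 0.0902 over 23 alternatives).

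Stress and inflammation lists had few calls. Hspa1a, the inducible heat shock protein, read 0.32, 0.231 and 0.996 in controls and 0.565 to 3.44 in treated rats (median 1.99). Its difference of 1.52 ± 0.5 was not called by limma (adjusted p = 0.124, unadjusted p = 0.0111), and the groups overlapped. Hspe1, a mitochondrial chaperonin, differed by 0.35 ± 0.105 (adjusted p = 0.0951). Of 18 immediate early and heat shock genes 0 were called by limma, also without myclobutanil rat 1, while 6 were higher and 0 lower at unadjusted p under 0.05. The 22 ER stress and ATF4 genes also gave 0 calls by limma, with 4 higher and 2 lower at unadjusted p under 0.05, and a median of 0.02 whose sign turned with median centring (-0.0575) and deposited values (-0.0592); 1 rose without myclobutanil rat 1. Atf5, a factor of that pathway, differed by -0.46 ± 0.154 (adjusted p = 0.129). Of 30 acute phase and interferon genes, the chemokine Cxcl9 rose by 0.65 ± 0.119 (controls 0.0643, 0.291 and 0.328, treated 0.433 to 1.56, adjusted p = 0.0188). Its values for myclobutanil, propiconazole and triadimefon were 1.13, 0.50 and 0.31. Wfdc21, a secreted acute phase protein, rose by 0.89 ± 0.206 with overlapping groups (controls 1.21, 1.45 and 1.19, treated 1.38 to 3.54, adjusted p = 0.0448). The compound values of Wfdc21 were uneven, at 1.68, 0.27 and 0.71 in the same order. Gbp2, an interferon-induced GTPase, fell by 0.21 ± 0.0464 (adjusted p = 0.0372). The 2 rises and 1 fall (6.67% and 3.33%, against 2.13% and 1.43% of all genes) became 4 and 1 without myclobutanil rat 1. All 3 calls were lost without any 1 control rat, and those of Wfdc21 and Gbp2 without other rats as well (adjusted p 0.0721 to 0.101 for Cxcl9, 0.0552 to 0.211 for Wfdc21 and 0.0504 to 0.175 for Gbp2).

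In bulk liver, fewer cells of a type and less RNA per cell cannot be told apart, and this holds for the marker genes that follow. Lox, which cross-links collagen and is made by stellate cells and fibroblasts, read 0.949, 1.26 and 0.623 in controls and -0.152 to 0.522 in treated rats (median -0.0651), and fell by 0.95 ± 0.138 (adjusted p = 0.00751). Pdgfra, a growth factor receptor of the same cells, fell by 0.26 ± 0.0543 (adjusted p = 0.03). Lox, Pdgfra and Lrat were the 3 falls of 14 stellate and fibroblast markers tested (21.4%, against 1.43% of all genes). There were 0 rises by limma, and 3 falls and 1 rise without myclobutanil rat 1. The collagen genes Col1a1 and Col3a1 differed by 0.17 and -0.07 and were not called. They were named after their values were seen. The mean level of the list was 0.497 to 0.627 in control and 0.361 to 0.809 in treated rats.

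A set of endothelial receptors was lower in the treated rats. S1pr1, a sphingosine phosphate receptor, read 2.21, 2.36 and 2.41 in controls and 1.37 to 2.03 in treated rats, and fell by 0.57 ± 0.0976 (adjusted p = 0.0143). Kdr, the main VEGF receptor, read 1.63, 1.75 and 1.73 in controls and 0.881 to 1.42 in treated rats, and fell by 0.53 ± 0.0935 (adjusted p = 0.0163). Tek, the angiopoietin receptor, fell by 0.21 ± 0.0453 (adjusted p = 0.0336). These were the 3 falls of 13 endothelial markers (23.1%, against 1.43% of all genes), with 0 rises by limma. The counts were the same without myclobutanil rat 1. The list's mean level was 0.773 to 0.832 in control and 0.577 to 0.726 in treated rats. Pecam1, Vwf and Lyve1, named after their values were seen, differed by 0.06, 0.02 and 0.01 and were not called. Kdr lost its call without any 1 control rat and S1pr1 without control rat 2 or 3 (adjusted p 0.0601 to 0.101 and 0.0769 to 0.101). Tek lost it also without propiconazole rat 3 or triadimefon rat 2 or 3 (0.0603 to 0.129) and with both other scalings. Pdgfra lost it without 6 of the 12 rats (0.0514 to 0.129) and with median centring.

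Kupffer cell markers gave no call in the fit of all 12 arrays with equal weights. Clec4f, a lectin of the resident macrophage, read 2.11, 2.41 and 2.23 in controls and 0.481 to 2.24 in treated rats, with compound values of -1.35, -0.15 and -0.18, and its class difference of -0.56 ± 0.183 was not called (adjusted p = 0.122). C1qa, a complement subunit made by macrophages, differed by -0.46 ± 0.127 (-1.002, -0.14 and -0.24; adjusted p = 0.0762). Of 13 Kupffer cell and macrophage markers, 0 were called by limma, 0 were higher and 6 lower at unadjusted p under 0.05, and the median was -0.22. Without myclobutanil rat 1, 5 were called lower, Clec4f (adjusted p = 0.0022) and C1qa (0.00744) among them, and array weights also gave 5 (0.0018 and 0.00658 for these genes). The mean level was 1.17 to 1.33 in control and 0.61 to 1.27 in treated rats. Of 18 hepatocyte markers, Apoa1 rose by 0.38 ± 0.0725 (adjusted p = 0.0218) and Hal, histidine ammonia lyase, fell by 0.47 ± 0.101 (adjusted p = 0.0345). That is 5.56% each way, against 2.13% higher and 1.43% lower of all genes. Without myclobutanil rat 1, 1 hepatocyte marker rose and 2 fell. Apoa1 lost its call with median centring and deposited values (0.00131 to 0.626 over 24 alternatives) and without any 1 control rat (0.0553 to 0.135), and Hal without 7 of the 12 rats (0.052 to 0.147). Of 6 cholangiocyte, 11 lymphocyte and neutrophil, 4 red cell and 7 pancreas markers, 0 were called by limma, and at unadjusted p under 0.05 there were 1 higher and 6 lower in all. The lymphocyte and neutrophil list had 1 fall without myclobutanil rat 1, and the other 3 lists had 0 calls by limma there. Krt7 and Epcam of the bile duct cell differed by -0.04 and 0.44, Prf1 and Nkg7 of cytotoxic lymphocytes by -0.09 and -0.06, Slc4a1 and Alas2 of red cells by -0.07 and -0.13, and Cela1 and Prss1 of the pancreas by -0.27 and -0.07.

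Of 14 thyroid hormone genes, 1 rose (7.14%, against 2.13% of all genes), the Ugt2b1 given above, and 0 fell by limma. However, 3 fell without myclobutanil rat 1 and with array weights. The list's median of 0.04 changed sign with median centring (-0.0299) and deposited values (-0.0315). Among the other large falls, Nrep, an extracellular matrix regulator, fell by 0.94 ± 0.161 from 1.65, 1.94 and 2.20 (treated 0.352 to 1.41, adjusted p = 0.0143) and Tsc22d1, a leucine zipper factor, by 0.71 ± 0.142 from 2.71, 2.85 and 2.50 (treated 1.52 to 2.30, adjusted p = 0.0263). The odorant receptor gene Olr59 fell by 0.68 ± 0.077 (adjusted p = 0.00219) and Ifgga2l1 by 0.73 ± 0.166 (adjusted p = 0.0427). Nrep lost its call without control rat 2 or 3 (0.0709 to 0.104), Tsc22d1 without 5 of the 12 rats (0.0506 to 0.122) and Ifgga2l1 without 10 (0.058 to 0.153). The 2 other probe sets of Tsc22d1 differed by -0.01 and -0.08 and were not called. In all, called named genes had 16 other probe sets, of which 15 shared the sign of the one reported and 5 were called. Not called, besides those of Tsc22d1, were those of Por (0.51), Srxn1 (0.71), Ppp1r3b (-0.36), Mat2a (0.14), Gk (-0.25) and Kdr (-0.11). The same held for Lrrfip1 (0.08 and 0.22) and for Per3, whose sign was the other one (-0.01). Among probe sets assigned to no gene or to several, these were the 2 largest called each way: 1368718_at rose by 2.15 ± 0.209, 1371076_at by 1.78 ± 0.14, and 1379888_at and 1370725_a_at fell by 1.01 ± 0.192 and 0.87 ± 0.154 (adjusted p 0.00139, 0.00107, 0.0218 and 0.0163). The calls of the first pair held with each rat left out, and those of the second pair were lost without any 1 control rat (0.0898 to 0.104 and 0.0665 to 0.114).

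**Figure D4:**
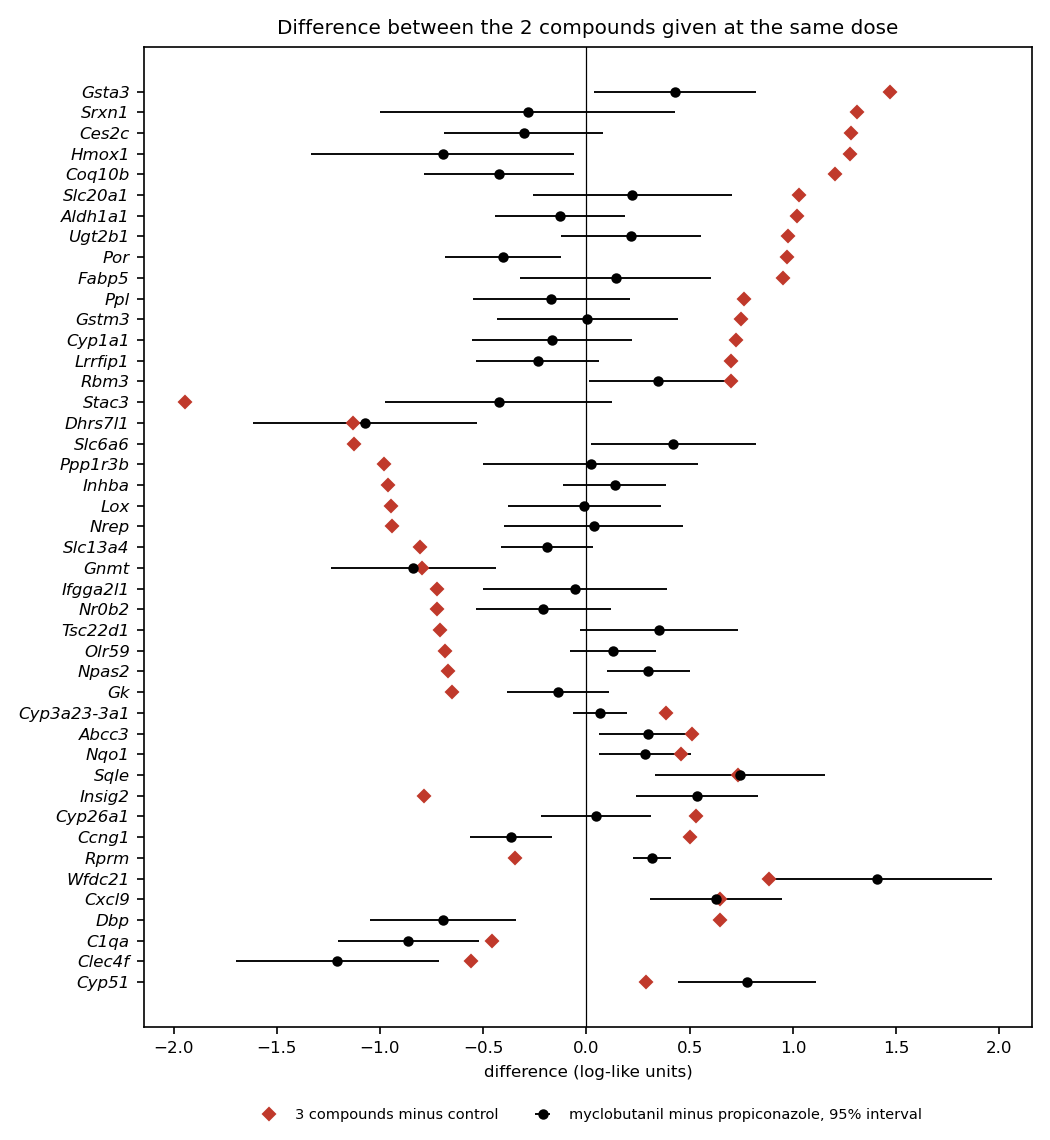
Difference between myclobutanil and propiconazole, both at 300 mg/kg/day (black points, with 95% intervals), and mean difference of the 3 compounds from control (red diamonds), in log-like units, for the 30 largest changes and 14 other named genes. No gene was called between the compounds; the intervals of Gstm3 and Lox include 0, and those of Dhrs7l1, Gnmt, Sqle, Clec4f and Cyp51 do not.

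Whether the class response was shared evenly could be tested for 1 pair of compounds, myclobutanil and propiconazole, which were given at the same dose and time. No control rat enters the difference itself, but all 12 arrays enter the shared estimate of the spread. Of 21729 probe sets, 0 were called by limma between them (smallest adjusted p = 0.0586), and 2200 had an unadjusted p under 0.05 (10.1%), or 1198 when those 2 groups were fitted alone. With array weights 343 were called, and without myclobutanil rat 1 the count was 29, so the absence of calls does not show that the compounds, one with a nitrile and a butyl chain and the other with a dioxolane ring, act alike. For a typical called gene of the class the 95% interval reached 0.17 to either side of the difference, and the median size of that difference was 0.10 against 0.32 for the class difference. The whole interval lay within the size of the class difference for 287 of the 421 genes, and within 0.5 times that size for 23. The 421 genes were chosen by their class difference and not by this one, which favours a larger class difference. An even response is therefore not read from these sizes or counts. At unadjusted p under 0.05 the compounds differed in 105 of the 421 (24.9%), against 11.1% of all genes; both contrasts share 1 estimate of the spread and the treated rats, and nothing is read from this share.

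Among the large changes, the difference for Gstm3 was 0.00 (95% interval -0.43 to 0.44), for Lox -0.01 (-0.38 to 0.36), for Ppp1r3b 0.02 (-0.50 to 0.54) and for Cyp3a23-3a1 0.07 (-0.06 to 0.20). Cyp26a1 differed by 0.05 (-0.22 to 0.31) and Inhba by 0.14 (-0.11 to 0.39). Intervals away from 0 were those of Por at -0.40 (-0.68 to -0.12), Coq10b at -0.42 (-0.79 to -0.06), Hmox1 at -0.70 (-1.33 to -0.06) and Gsta3 at 0.43 (0.04 to 0.82), none of which passed the adjusted threshold (adjusted p 0.394 to 0.479). Wider gaps were seen for Dhrs7l1 at -1.07 (-1.61 to -0.53, adjusted p = 0.254), Gnmt at -0.84 (-1.24 to -0.44, 0.225), Sqle at 0.74 (0.33 to 1.16, 0.293), Wfdc21 at 1.41 (0.86 to 1.96, 0.158) and Cyp51 at 0.78 (0.44 to 1.11, 0.175). Rprm differed by 0.32 (0.22 to 0.41, adjusted p = 0.0593), beside a class difference of -0.35. Triadimefon was given at 175 mg/kg/day, so its values stand beside the others without a comparison: 1.38 for Gsta3, 1.24 for Por, -1.48 for Stac3, -1.57 for Dhrs7l1 and -0.52 for Rprm.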

How the data were processed

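The 12 livers were measured on 12 arrays in 4 groups of 3. The authors deposited 1 log-like score per probe set; how it was computed, scaled and logged is not given in the sources used here. The plan assumed log2 values; the deposited scores were used as they are. Of 31099 probe sets, 57 controls were left out, arrays were quantile normalized, and the 30% with the lowest mean (9313) were dropped, leaving 21729. By the platform annotation 20826 probe sets read 1 gene, 436 several and 9780 none; RefSeq (GRCr8) updated 20758 symbols. A gene is read from its probe set with the highest mean.

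limma 3.58.1 (R 4.3.3) fitted 4 group means over all 12 arrays (8 residual degrees of freedom, variance trend), with Benjamini-Hochberg adjustment over all probe sets; an adjusted p under 0.05, two-sided, was called. On simulated data for the class contrast over 21729 probe sets, with 200 shifted, it recovered 67.16% of shifts of 0.3, 92.54% of 0.6 and 100% of 1, with 11 false among 184 calls, and made 0 limma calls with no change (4.924% of unadjusted p under 0.05). The number of arrays limits precision.

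The compounds, gene lists, named genes and tests were chosen with earlier results of these data known. Named are the 15 largest called rises and falls without overlap, at most 4 called members per list (2 with the smallest p where none is called), fixed genes and, between compounds, the 5 largest called differences each way, of which there were none. Probe sets that read several genes name none. Alternatives were other scaling, filters and variance models, array weights, a replicate block, 2 groups, and leaving out each rat or compound. Rats with the same replicate number did not deviate together, so the numbers were not used as pairs. Promoters (346 of 421 called genes) are RefSeq, GRCr8. Python 3.11.15, pandas 2.3.3 and matplotlib 3.10.9 were used.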

Additional observations from a re-analysis of the deposited data

Results flagged for a closer look

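In 9 of 90 named genes and quality measures tested, 1 of the 9 treated rats lay far from the other 8, by a gap that is a large share of the group's range. Chance flags about 1 in 20 such groups. For Slc6a6 the gap was 0.58 of the range (myclobutanil rat 3 highest at 1.13, the next at 0.552). For Lox it was 0.722 (triadimefon rat 3 at 0.522, the next at 0.0353), and for Slc13a4 0.51 (myclobutanil rat 3 lowest at 0.354, the next at 0.582). Cyp3a23-3a1 had 0.506 (propiconazole rat 2 lowest at 3.29, the next at 3.39) and Cyp2c11 0.756 (myclobutanil rat 3 lowest at 2.39, the next at 3.33). Rara and Krt7 had 0.678 and 0.584, with myclobutanil rat 1 lowest in both. Hspe1 had 0.566 (propiconazole rat 3 highest at 3.31, the next at 2.97). The deposited array median had 0.829, with myclobutanil rat 1 at 0.157 and the next at 0.0419.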

How the results depend on the processing

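The class contrast called 647 probe sets. It called 1992 with array weights, 305 with the replicate block, 1456 without the myclobutanil rats, 197 without the propiconazole rats, 229 without the triadimefon rats, and 68 to 2054 with 1 array left out. The counts were 573 with median centring, 667 with deposited values, 531 and 741 with no or a 50% filter, 792 without a variance trend, 617 with robust moderation and 512 with the treated rats as 1 group. Between myclobutanil and propiconazole the 0 limma calls became 1 with median centring, 1 with deposited values, 2 with the 50% filter, 5 without a trend, 343 with array weights and 0 to 29 with 1 array left out; the replicate block and the fit on those groups alone gave 0. No called named gene reversed, though all these fits share arrays with the one that made the calls. The same-numbered rats correlated above 0.1 in 3 of 18 pairs, and 2 of 12 arrays were closest to their own number, so the block is no pairing of animals. Fits without a compound or a control hold fewer samples; other causes were not tested.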

Other observations

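Genes of ribosome assembly stood among the rises. A list of nucleolar genes was written after the called genes had been seen, so its counts are a description only. Of 90 tested members, 27 rose (30%, against 2.13% of all genes) and 0 fell by limma, 59 were higher and 1 lower at unadjusted p under 0.05, and the median was 0.17. In 39 of the 90 every treated rat lay above every control, which held for 549 of all 11842 tested genes (4.64%). The mean level of the list was 0.434 to 0.455 in control and 0.568 to 0.713 in treated rats. Nop58 and Nop56, core proteins of the particles that methylate ribosomal RNA, differed by 0.63 and 0.29, Gar1 of the pseudouridylation particle by 0.47, Gnl3 (nucleostemin) by 0.49 and the helicase Ddx21 by 0.43 (adjusted p 0.0311, 0.036, 0.00865, 0.0206 and 0.0138). Without control rat 1, 2 or 3, 1, 5 or 1 members were called, and without myclobutanil rat 1, 48.

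Polyamine genes, listed in the same way, gave 4 rises (26.7%, against 2.13% of all genes) and 1 fall (6.67%, against 1.43%) of 15 tested. Azin1, which frees ornithine decarboxylase from its inhibitor antizyme, rose by 0.63 ± 0.0734 (adjusted p = 0.00263), and Odc1, the decarboxylase itself, by 0.48 ± 0.096 (adjusted p = 0.0254). Amd1 and Sat1, which make spermidine's donor and acetylate polyamines, rose by 0.41 and 0.62 (adjusted p 0.00611 and 0.0236), and Oaz2, an antizyme, fell by 0.36 ± 0.0814 (adjusted p = 0.0411). The mean level of the list was 0.991 to 1.05 in control and 1.12 to 1.24 in treated rats. With 1 rat left out, 1 to 6 members rose and 0 or 1 fell, with the fewest rises, 1, without control rat 3.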
